A study of Rattus norvegicus with 3 samples.

Results

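The 10 genes described here were Dnmt1, Uhrf1, Hells, Dnmt3a, Dnmt3b, Tet1, Tet2, Tet3, Ezh2 and Hdac1, which write, copy or remove DNA methylation or set repressive chromatin in dividing cells. They were chosen by name, and all 10 were found among the 18425 genes of the deposited table. Their RNA was measured in dissected retinas of wild-type Sprague Dawley rats at postnatal day 4 (P4), after an injection into the vitreous that all groups received at P1. The 3 groups were citrate buffer at pH 4.5, the solvent of STZ, then saline, and then STZ at 10 µg in the same volume of 1 µl. STZ is streptozotocin, a glucosamine-nitrosourea that alkylates DNA and is widely used to kill pancreatic beta cells. For its eye injections at P1, the paper describes STZ in right eyes and buffer in left eyes of the same animals. Whether the sequenced retinas were paired in this way is not given, so buffer and saline may not be equivalent controls. There was 1 library per group, and the number of retinas in a library is not given in the sources used here. No difference below therefore has a replicate check or a p-value.

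DNA methylation is copied after each round of replication. Uhrf1 binds the half-methylated DNA behind the fork and brings in Dnmt1, the maintenance methyltransferase, while Hells opens the chromatin for them. Dnmt3a and Dnmt3b set methylation at new sites, and the Tet enzymes oxidise it as a first step of its removal. Ezh2 is the catalytic subunit of Polycomb repressive complex 2, which methylates histone H3 at lysine 27, and Hdac1 removes acetyl groups from histones. In the newborn rat retina, progenitors still divide to give rods, bipolar cells and Müller glia, and Ezh2, Dnmt1 and Uhrf1 are known to be high in such dividing progenitors.

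Promoter windows were read for the 10 genes from RefSeq sequences of the rat assembly GRCr8, each from 250 bases before to 50 bases after a listed transcription start. Of the 10 genes, 9 had at least 1 window, 16 in all, and Dnmt3b was the gene with none. They were searched on both strands for the 8-letter words TTTCCCGC, TTTGGCGC, TTTCGCGC and TTTGCCGC, which are forms of the site bound by E2F factors, the regulators of S phase genes. At least 1 word was found in 4 windows, 1 each of Dnmt1, Uhrf1, Hells and Ezh2. The same words occurred in 2.14% of all 33469 windows of this length, and in 3.76% of the 13201 windows of genes that averaged at least 10 counts in these libraries. The 4 windows are printed because they hold these words, with each match in capitals and all other bases in lower case. A match is a run of letters and was not shown to be bound here.
Dnmt1 (chr8:27762792-27763091, minus strand): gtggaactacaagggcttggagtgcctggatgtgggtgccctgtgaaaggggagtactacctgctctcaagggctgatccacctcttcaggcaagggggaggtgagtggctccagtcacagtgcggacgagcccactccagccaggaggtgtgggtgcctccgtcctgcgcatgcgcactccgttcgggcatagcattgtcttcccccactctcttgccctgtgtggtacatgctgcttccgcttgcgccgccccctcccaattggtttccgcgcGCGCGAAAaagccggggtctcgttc
Uhrf1 (chr9:1222936-1223235, plus strand, the last of its 3 starts): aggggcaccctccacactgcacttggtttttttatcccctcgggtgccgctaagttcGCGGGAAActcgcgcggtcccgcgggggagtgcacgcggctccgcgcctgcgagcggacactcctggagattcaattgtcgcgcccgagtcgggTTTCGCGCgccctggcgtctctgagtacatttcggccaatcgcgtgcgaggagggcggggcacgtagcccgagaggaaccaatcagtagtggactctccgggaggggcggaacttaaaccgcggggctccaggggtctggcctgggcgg
Hells (chr1:246113879-246114178, plus strand): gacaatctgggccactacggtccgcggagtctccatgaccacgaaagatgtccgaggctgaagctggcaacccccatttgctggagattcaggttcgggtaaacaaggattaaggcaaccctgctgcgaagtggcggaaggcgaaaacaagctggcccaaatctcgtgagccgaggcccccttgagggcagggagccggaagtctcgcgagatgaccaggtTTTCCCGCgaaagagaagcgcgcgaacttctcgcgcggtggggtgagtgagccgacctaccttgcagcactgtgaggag
Ezh2 (chr4:77687134-77687433, minus strand): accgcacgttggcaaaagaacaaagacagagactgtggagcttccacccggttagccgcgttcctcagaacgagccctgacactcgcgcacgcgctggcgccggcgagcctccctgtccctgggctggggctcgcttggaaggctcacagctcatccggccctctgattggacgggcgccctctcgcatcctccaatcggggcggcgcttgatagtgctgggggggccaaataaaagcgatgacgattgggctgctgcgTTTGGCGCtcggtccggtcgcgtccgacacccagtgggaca

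Counted from 0 at the first base after the start point, the match of Dnmt1 lay at 25 to 32, that of Hells at -29 to -22 and that of Ezh2 at 9 to 16. Uhrf1 held a pair of matches, at -193 to -186 and at -99 to -92. None of these overlapped a match to the other words searched on both strands. Of those, CCAAT stood in 37.5% of all windows, GGGCGG, the letters of the GC box, in 33.1%, while the word TTTGAA was found in 18.3%. In windows of genes averaging at least 10 counts, the shares were 37.1%, 58.6% and 12.2% in the same order. TTTGAA, the core of an element found in many mitotic genes, was in no window of the 10 genes. Dnmt1, Uhrf1 and Ezh2 held both CCAAT and GGGCGG beside the E2F words, and Hells held neither. The share of G and C in the 16 windows ran from 40% in a window of Tet1 to 74.3% in Dnmt3a, beside a median of 51.7% over all windows.

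Each gene was given by the authors as an FPKM, that is, its fragments divided by transcript length and library size, and as an estimated read count. Summed over genes, the counts came to 21992702 in buffer, to 21977843 in saline and to 22031249 in STZ, so that the libraries were of nearly equal depth. The fold below is (FPKM + 1)/(FPKM + 1), which pulls the values of low genes toward 1, and the study's thresholds of 1.54 and 0.65 were used with it. The count ratio divides the part of all counts that a gene takes in one library by its part in the other, and its 95% interval was computed from the rounded counts by the exact Clopper-Pearson method. That interval covers counting error only, since the reads carry no molecular identifiers and copies of one molecule may be counted more than once, and it compares libraries, not conditions. In a whole tissue, fewer cells of a type cannot be told apart from less RNA per cell.

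The libraries differed in the markers of several cell types, each as a list of genes whose levels were summed in FPKM. The tissue carried its defining genes, with Crx at 349 to 409 and Pax6 at 264 to 271 FPKM. All 14 microglia and macrophage genes, such as Aif1, Cx3cr1 and Csf1r, were higher in STZ than in either control by the counting interval, and summed to 66.4 in buffer, to 87.4 in saline and to 219 in STZ, with medians of 1.497 and 1.16 log2 against them. The sum of 11 endothelium and pericyte genes was 131, 140 and 88.8, with medians of -0.58 log2 against buffer and -0.54 against saline. Of that sum, Kdr alone made up 106, 117 and 80.2, and the other 10 genes made up 25.5, 22.3 and 8.65. Pecam1 and Cdh5, the first markers of this list, were only at 0.95 and 2.34 FPKM in buffer. The sum thus mostly follows Kdr, and the cell source of Kdr was not tested. The sum of 5 astrocyte genes was 14.7, 16.3 and 7.59, with medians of -0.64 and -0.80. The sum of 14 lens genes was 18.5, 48.9 and 299, with medians of 3.30 and 2.33 over the 12 that averaged at least 10 counts, and Cryba2 was at 0 in buffer. The sum of 14 genes of the pigment, ciliary and iris epithelium was 263, 415 and 228, or 108, 269 and 107 without Rlbp1, the most abundant of them on average, with a median of 1.19 between saline and buffer, -0.02 for STZ over buffer and -1.18 for STZ over saline, and Rpe65 was at 0 in buffer. The part of these cell types in the values of the 10 genes was not tested.

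None of the 10 genes passed a fold threshold in any of the 3 comparisons. Over all 18425 genes, 3.29% passed in STZ against buffer and 3.78% against saline, and 1.43% passed between the controls. By the counting interval, 6 of the 10 were lower in STZ than in buffer (Dnmt1, Uhrf1, Tet1, Tet2, Tet3 and Ezh2), where 18.8% of the 14885 genes averaging at least 10 counts were lower. Dnmt3a was the 1 gene of the 10 that was higher, where 26.2% of all genes were. Against saline, 7 of the 10 were lower, the same 6 with Hells, beside 23.5% of all genes, and Dnmt3a and Hdac1 were higher, beside 26.9%. All 10 genes passed the minimum of 10 counts. The interval narrows as reads rise, so that Tet3 was called lower at a count ratio of 0.962, from 6695 and 6450 reads. The shares by the interval, here and below, include genes of far fewer reads and are not matched for depth. The median log2 fold of the 10 was -0.14 against buffer and -0.17 against saline, where the median of all genes was 0.03 and 0.01. Both comparisons share the STZ library, so they are not independent of each other.

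The controls differed from each other as well. In saline against buffer, 4 of the 10 genes were lower by the counting interval (Dnmt1, Uhrf1, Dnmt3a and Hdac1), where 12% of all genes were, and Hells was higher, where 15.9% of all genes were. The median log2 fold of the 10 in this comparison was -0.08, beside 0.02 over all genes. The STZ value lay below both controls for 7 genes, above both for Dnmt3a and Hdac1, and between them for Dnmt3b. Its distance in FPKM to the nearer control was compared with the distance between the controls, the single measure of spread that control tissue gives here. That distance was 39.2 times the control gap for Ezh2, 10.1 times for Tet3, 8.97 times for Tet2, 3.55 times for Uhrf1 and 1.66 times for Tet1. It was smaller than the control gap for Dnmt1, Dnmt3a, Hdac1 and Hells, at 0.615, 0.638, 0.438 and 0.083 times. Taken from shares of counts in place of FPKM, the distance of Dnmt3a was larger than its control gap, at 1.39 times, that of Ezh2 was 65.9 times, and the other 7 genes outside the controls kept their side of the gap. A gap from a single pair of libraries is itself uncertain. Those of Ezh2, Tet3, Tet2 and Tet1 were only 0.32, 0.09, 0.33 and 0.35 FPKM. Each was narrower than the counting interval of its gene in buffer, which for Ezh2 ran from 67.0 to 71.4 FPKM. The multiples of these genes thus rest on gaps within counting error and do not give the size of a difference.

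**Figure D1:**
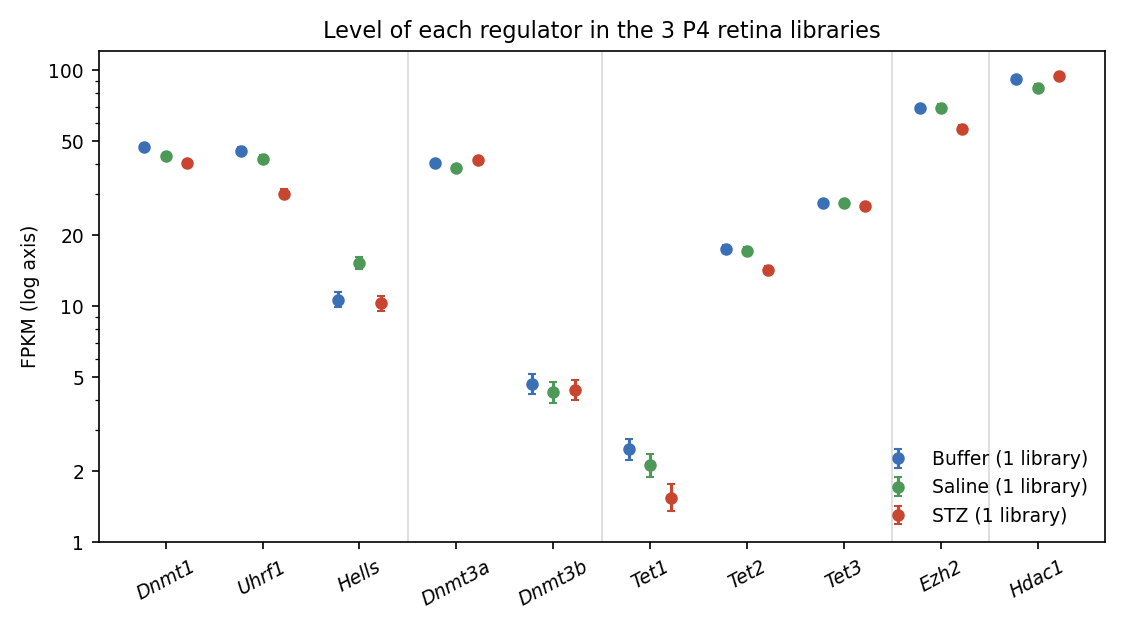
FPKM on a log axis of the 10 genes in the buffer (blue), saline (green) and STZ (red) libraries, 1 point per library, with bars for the 95% counting interval, which is often smaller than the point. Grey lines part the genes of maintenance, de novo methylation, oxidation, Polycomb and deacetylation. Uhrf1 and Ezh2 in STZ lie clear of a pair of close controls, whereas Hells stands apart in saline.

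The levels spanned a wide range. Hdac1 was highest in each library, at 84.4 to 94.6 FPKM, and Tet1 lowest, at 1.55 to 2.48 FPKM. In both controls the order ran from Hdac1 through Ezh2, Dnmt1, Uhrf1, Dnmt3a, Tet3, Tet2, Hells and Dnmt3b to Tet1, and Dnmt1 and Uhrf1 were the neighbours in this order whose counting intervals overlapped. In STZ the order was Hdac1, Ezh2, Dnmt3a, Dnmt1, Uhrf1, Tet3, Tet2, Hells, Dnmt3b and Tet1, and the overlapping neighbours were Dnmt3a and Dnmt1.

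Among the maintenance genes, Uhrf1 was at 45.6 FPKM (buffer), 42.2 FPKM (saline) and 30.02 FPKM (STZ). The controls were close to each other and STZ was clearly below them. Its fold against buffer was 0.666, just inside the threshold of 0.65, and against saline it was 0.718. The count ratio was 0.658 (0.623 to 0.695) against buffer, from 3257 and 2148 reads, and 0.707 (0.668 to 0.747) against saline. Of the 14885 genes with at least 10 counts, 1.32% had a lower fold than Uhrf1 against buffer and 4.02% against saline. Against 21 S phase and proliferation genes, Uhrf1 had a lower fold than every 1 of the 21 in STZ against buffer, and than all but 5 in STZ against saline. By the count ratio, which adds nothing to low levels, Cdc6 lay below Uhrf1 against buffer, at 0.619. The intervals of E2f1, at 0.667 (0.624 to 0.712), and of Mki67, at 0.686 (0.668 to 0.703), overlapped that of Uhrf1. These genes were named after their values were seen. The place of Uhrf1 among the 21 thus lies within counting error. Of 13 retinal progenitor genes, 3 had a lower fold than Uhrf1 against either control. Uhrf1 was also lower in saline than in buffer, with a count ratio of 0.932 (0.886 to 0.979).

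Dnmt1 was at 47.5 FPKM in buffer, 43.2 in saline and 40.6 in STZ. STZ was the lowest of the 3, yet saline was closer to STZ than to buffer. For Dnmt1 the count ratio of STZ was 0.855 (0.824 to 0.888) to buffer and 0.940 (0.904 to 0.977) to saline, and that of saline to buffer was 0.910 (0.877 to 0.944). The size of the difference in Dnmt1 thus depended on which control was taken. The level of Uhrf1 per unit of Dnmt1, both in FPKM, was 0.961 with buffer, 0.976 with saline and 0.739 with STZ.

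Hells, an SNF2-type helicase, was at 10.7 FPKM in buffer, 15.3 in saline and 10.3 in STZ. Saline stood alone, and buffer and STZ were alike. The count ratio of saline to buffer was 1.39 (1.26 to 1.53), that of STZ to saline 0.681 (0.617 to 0.751) and that of STZ to buffer 0.946 (0.851 to 1.05). Its fold in saline against buffer, 1.39, was above that of all 21 S phase genes and of 98.1% of all genes. The sum of the epithelial genes above was also highest in saline, at 415 FPKM against 263 in buffer and 228 in STZ. Without Rlbp1 it was 269 against 108 and 107. The part of these genes in the Hells value was not tested. The counts of Hells were fractional in all 3 libraries (725.46, 1007.45 and 686.84), so the error of that estimate is missing from its interval.

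**Figure D2:**
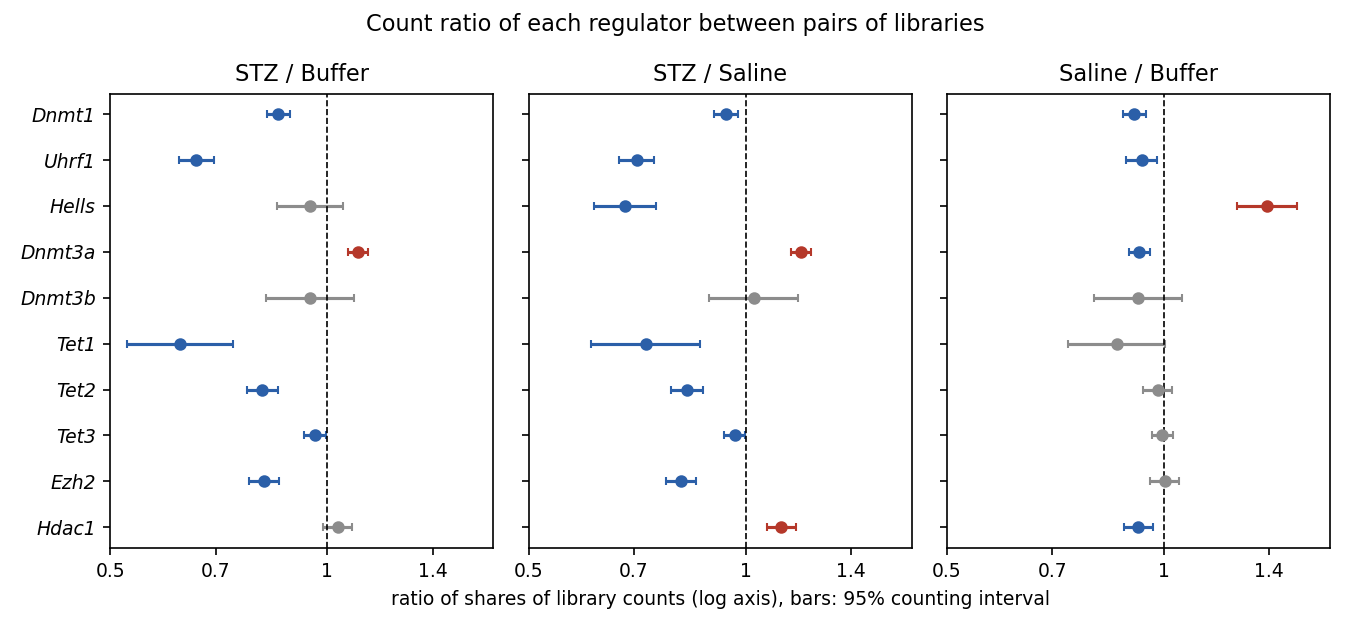
Count ratio on a log axis of each of the 10 genes in STZ over buffer, STZ over saline and saline over buffer, 1 library each, with bars for the 95% counting interval. Blue intervals lie below 1, red above 1 and grey span 1. Ezh2 and Tet2 lie at 0.813 to 0.829 against both controls, which do not differ in them by the interval, and Hells is to the right in saline over buffer.

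Of the de novo methyltransferases, Dnmt3a was at 40.6 FPKM in buffer, 38.6 in saline and 41.8 in STZ. Its reads numbered 7447, 6885 and 8238 in the same order. STZ was above both controls by either measure, although the 2 measures gave different sizes. By FPKM, its counting interval (40.9 to 42.7) overlapped that of buffer (39.6 to 41.5). With the FPKM scaled by TMM or DESeq2 factors, the log2 fold against buffer was 0.004 or 0.006, so the difference from buffer rested on the counts. The fold from FPKM was 1.03 against buffer and 1.08 against saline, and the count ratio was 1.10 (1.07 to 1.14) and 1.19 (1.16 to 1.23). The length implied by count and FPKM together was 7.07% longer in STZ than in buffer and 10.1% longer than in saline for Dnmt3a, and differed by at most 2.65% between any libraries for the other 9 genes. A difference of more than 5% was found for 4.98% of 12532 genes in STZ against buffer. Saline against buffer gave a count ratio of 0.925 (0.895 to 0.956) for Dnmt3a.

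Dnmt3b was far lower than Dnmt3a per length, which exceeded it 8.66 to 9.44 times, at 4.68 FPKM in buffer, 4.32 in saline and 4.43 in STZ. STZ lay between the controls. With 384 to 417 reads, the count ratio was 0.946 (0.822 to 1.09) against buffer and 1.03 (0.889 to 1.18) against saline, so that a difference within these bounds was not detectable at this depth. Dnmt1 made up 51.2% of the summed Dnmt FPKM in buffer, 50.2% in saline and 46.7% in STZ. Dnmt3a made up 43.7%, 44.8% and 48.2%, and Dnmt3b 5.05%, 5.02% and 5.10%. Dnmt1 was thus ahead of Dnmt3a in both controls and slightly behind it in STZ, with Dnmt1 at 1.17, 1.12 and 0.971 times the level of Dnmt3a. By reads, without the length, Dnmt3a was ahead of Dnmt1 in all 3 libraries.

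**Figure D3:**
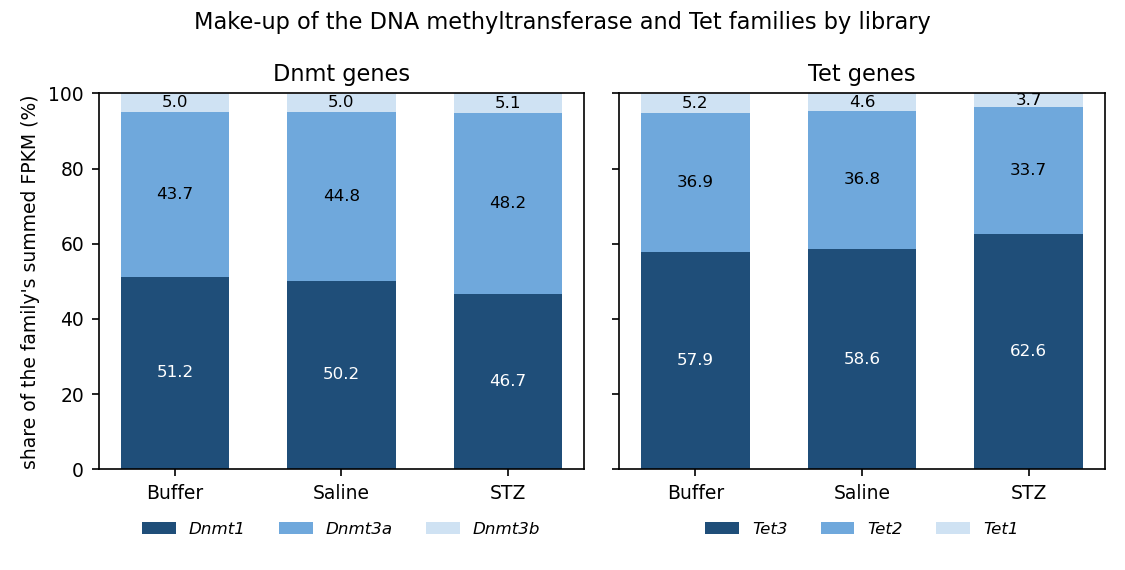
Share in percent of the summed FPKM of the 3 Dnmt genes (left) and the 3 Tet genes (right) in each library, 1 library per bar. Dnmt3a takes 48.2% of the Dnmt sum in STZ against 43.7% and 44.8% in the controls, and Tet3 takes 62.6% of the Tet sum against 57.9% and 58.6%.

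The Tet genes differed in how far STZ lay from the controls. Tet1 was at 2.48, 2.13 and 1.55 FPKM in buffer, saline and STZ, from 364, 313 and 228 reads. It was lowest in STZ, and the controls were some way apart. The count ratio was 0.625 (0.528 to 0.740) against buffer and 0.727 (0.610 to 0.865) against saline, the smallest ratio of the 10 against buffer, although its interval overlapped that of Uhrf1. The fold of 0.733 was nearer to 1 because 1 FPKM is added to both levels.

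Tet2 was at 17.6 FPKM (buffer), 17.2 FPKM (saline) and 14.3 FPKM (STZ). The controls were nearly equal and STZ was below them. The count ratio was 0.813 (0.773 to 0.855) against buffer, 0.829 (0.788 to 0.872) against saline and 0.980 (0.935 to 1.03) between the controls. Tet3, the most abundant of the 3 per length, was at 27.5, 27.4 and 26.5 FPKM, a difference of a few percent. Its count ratio of 0.962 (0.929 to 0.995) against buffer and 0.966 (0.933 to 0.999) against saline barely left 1 out. Tet3 accordingly made up 57.9%, 58.6% and 62.6% of the summed Tet FPKM, and Tet1 5.22%, 4.55% and 3.66%. The sum itself was 47.6, 46.8 and 42.3 FPKM in buffer, saline and STZ, and the sum of the Dnmt genes was 92.7, 86.1 and 86.9.

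Ezh2 was at 69.2 FPKM (buffer), 69.5 FPKM (saline) and 56.6 FPKM (STZ). The controls agreed within counting error, and STZ was below both by a similar amount. By counts the ratio was 0.816 (0.778 to 0.856) against buffer, 0.814 (0.776 to 0.854) against saline and 1.00 (0.958 to 1.05) between the controls. Of all genes with at least 10 counts, 7.1% had a lower fold against buffer and 10.1% against saline. Its core partners in Polycomb repressive complex 2 were nearer to the controls. The folds of Eed were 0.986 (buffer) and 0.916 (saline), and those of Suz12 were 1.04 and 1.06. Ezh1, the alternative catalytic subunit, was at 16.0, 15.8 and 13.5 FPKM, and Ezh2 per Ezh1 was 4.32, 4.40 and 4.19 in buffer, saline and STZ.

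Hdac1 was at 91.5 FPKM in buffer, 84.4 in saline and 94.6 in STZ. STZ was the highest, by less than the distance between the controls. In counts the ratio was 1.03 (0.988 to 1.08) against buffer, 1.12 (1.07 to 1.18) against saline and 0.922 (0.879 to 0.967) between the controls. Hdac2, its close paralog, was at 147, 134 and 147 FPKM, likewise lowest in saline. RefSeq lists 18 pseudogenes named after Hdac1 in the rat, 3 after Dnmt3a and 2 after Dnmt3b. Reads shared with such copies could be lost or split, and the saline count of Hdac1 is fractional, so its level is uncertain.

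**Figure D4:**
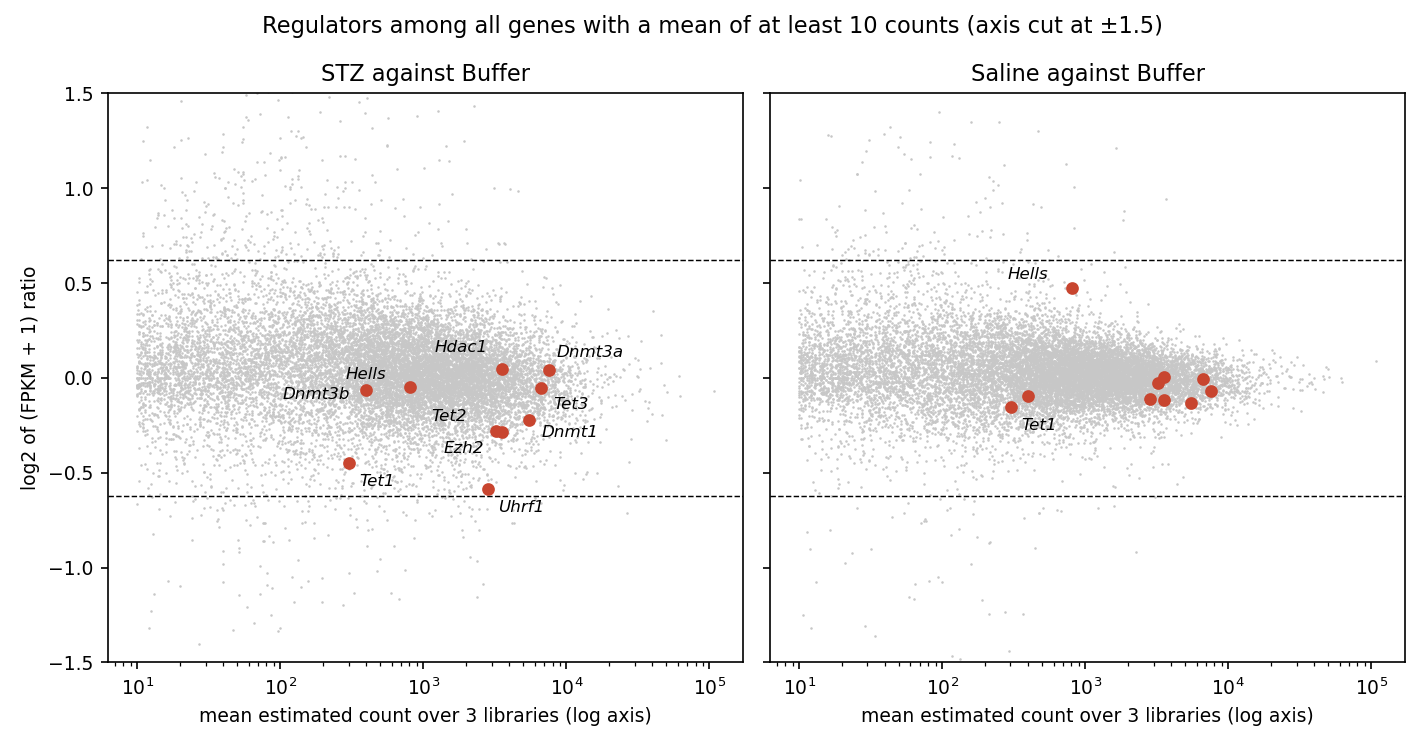
Log2 of the (FPKM + 1) ratio against the mean estimated count on a log axis for genes averaging at least 10 counts (grey) and the 10 genes (red), in STZ against buffer (left) and saline against buffer (right), 1 library each. Dashed lines mark the folds of 1.54 and 0.65, and 79 and 40 genes lie beyond the axis. Uhrf1 sits just above the lower line in STZ, and Hells is the farthest of the 10 from 0 between the controls.

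The 4 genes with E2F words in the printed windows had folds against buffer of 0.666 (Uhrf1), 0.821 (Ezh2), 0.858 (Dnmt1) and 0.967 (Hells) in STZ. Against saline, the folds of the same genes were 0.718, 0.818, 0.941 and 0.696. The genes with none of these words in the windows read were Tet1, Tet2, Tet3, Dnmt3a and Hdac1. In the same order, their folds were 0.733, 0.823, 0.965, 1.03 and 1.03 against buffer. Against saline they were 0.815, 0.838, 0.968, 1.08 and 1.12. A link between the words and the folds was not tested.

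Other genes of the same pathways were read from lists. Of 11 partners of replication-coupled methylation and chromatin assembly, 6 were lower in STZ than in buffer and 7 than in saline by the counting interval, with medians of -0.21 and -0.29 log2. None of them was higher against buffer, and Nasp and Hat1, which were named after their values were seen, were the 2 that were higher against saline. Cdca7, which works with Hells as a zinc finger partner, was at 33.2 FPKM in buffer, 33.5 in saline and 21.1 in STZ. It was the gene of this list past the threshold against both controls, with folds of 0.647 and 0.641, while Hells did not follow it against buffer. Pcna, the sliding clamp of the replication fork, which the study itself picked for PCR, was at 151, 143 and 115 FPKM. Usp7, a deubiquitinase that stabilises Uhrf1 and Dnmt1, was at 83.8, 83.5 and 82.5 FPKM, with a fold of 0.985 against buffer.

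Of 24 readers, editors and cofactors of DNA methylation in the table, 11 were lower and 6 higher against either control, with medians of -0.10 and -0.08 log2. Uhrf2, the paralog of Uhrf1, was at 79.3, 76.2 and 69.1 FPKM, with folds of 0.872 and 0.907, nearer to 1 than those of Uhrf1. Tdg, the glycosylase that excises oxidised methylcytosine after the Tet enzymes, had folds of 0.990 and 0.956. Gadd45b passed the upper threshold against buffer alone, from 28, 43 and 57 reads. Gadd45g, from 1426, 1420 and 999 reads, had the lowest folds of the 24, at 0.703 and 0.704. The folds of Gadd45a were 0.916 and 0.882. These Gadd45 genes were named after their values were seen.

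Of 28 Polycomb genes and H3K27 demethylases, 11 were lower and 4 higher against buffer and 14 lower and 5 higher against saline, with medians of 0.00 and -0.12 log2. Pcgf1, a subunit of a variant Polycomb repressive complex 1, passed the upper threshold against both controls, with folds of 2.12 and 1.72, from fractional counts of 19.4, 26.9 and 56.3. Kdm6a and Cbx2 were named after their values were seen. Kdm6a passed against buffer, with a fold of 2.0 from fractional counts of 102.93, 457.92 and 284.06 in buffer, saline and STZ, and of the 28 it differed most between the controls. Cbx2, a chromodomain subunit, passed the lower threshold against saline at 0.632, with 0.710 against buffer. Of 26 histone deacetylases and partners, 9 were lower and 7 higher against buffer and 12 and 8 against saline, with a median of -0.04 in each. None of these 26 passed a fold threshold against either control.

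Most listed proliferation and progenitor genes were lower in the same library. Of 21 S phase and proliferation genes, 15 were lower against either control, with medians of -0.24 and -0.34 log2, and their summed level was 993 FPKM in buffer, 1007 in saline and 869 in STZ. Ccnb1, a mitotic cyclin, was higher by the interval against both controls, with folds of 1.30 and 1.24, and Tyms, which makes thymidylate, was higher against saline at 1.22. Both were named after their values were seen. Some of the 21, such as E2f1 and Mcm3, were picked by the study itself from these samples for PCR. So were Hes1 and Hes5 of the progenitor list that follows, so neither list is independent evidence. By PCR on replicate samples, the paper reported these named genes as lower after STZ. Of 13 retinal progenitor genes, 11 were lower against either control, with medians of -0.24 and -0.35 log2 and sums of 1374, 1385 and 1070 FPKM, and Pax6, named after its values were seen, was the 1 higher by the interval, against buffer alone, at a fold of 1.02. Of 18 genes of postmitotic neurons, 15 were higher against either control, with medians of 0.25 and 0.34 log2 and sums of 1775, 1670 and 2010 FPKM. Prdm1 and Neurod1, named in the same way, were lower against both controls, with folds of 0.859 and 0.884 against buffer. The part of the share of dividing cells in the values of Uhrf1, Ezh2, Tet1 and Tet2 was not tested.

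**Figure D5:**
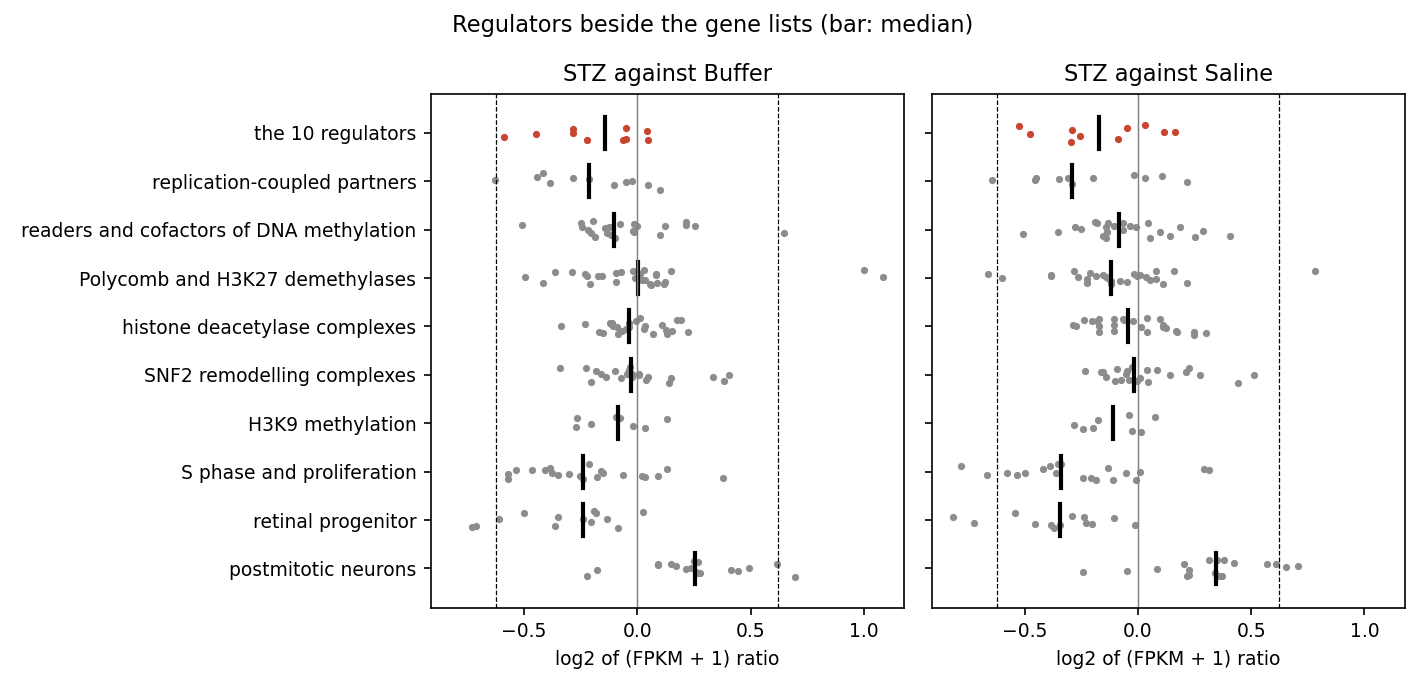
Log2 of the (FPKM + 1) ratio of the 10 genes (red) and of the genes of 9 lists (grey, averaging at least 10 counts), in STZ against buffer and against saline, 1 library each. Each point is a gene, black bars are medians, and dashed lines mark the folds of 1.54 and 0.65. The median of the 10 genes, at -0.14 and -0.17, lies between those of the S phase list, at -0.24 and -0.34, and that of the deacetylase list, at -0.04 in both.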

How the data were processed

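The labels give 1 RNA library each for the buffer, saline and STZ groups. RNA was prepared with an Illumina TruSeq kit and sequenced on a HiSeq 2500. The authors mapped reads with TopHat2, allowing up to 2 mismatches, discarded reads with several locations and computed FPKM with a custom R script. The submitters' processing notes also name FastQC and the build rn6, and the annotation and counter are not given in the sources used here. The deposited units are FPKM, TPM and an estimated count per gene, and some of the counts were fractional (12.9%, 13.2% and 13.1% in buffer, saline and STZ). The counts were rounded for the intervals.

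The 10 genes, the 14 gene lists, the search words and the tests were chosen with earlier results of these data known. Of the list genes, 1 (Dnmt3l) was not found. Named genes were the 10, 9 partners (Usp7, Pcna, Cdca7, Eed, Suz12, Ezh1, Hdac2, Uhrf2 and Tdg), up to 4 genes of a pathway list past a threshold against both controls, and up to 3 markers of a cell type list. Symbols are those of the deposited table, and 17120 of its identifiers matched RefSeq for GRCr8. Promoter windows came from the same RefSeq release and build. With 1 library per group no model was fitted and no gene was left out of the table, and list medians use genes averaging at least 10 counts. The alternatives tried were TPM or CPM, a pseudocount of 0.1, fold thresholds set at 2 and 0.5, TMM factors of edgeR 4.0.16, size factors of DESeq2 1.42.0 (R 4.3.3), other count minimums and the mean of both controls. TMM scaling of the intervals and whole counts only were added after seeing the data. Python 3.11.15, numpy 2.4.6, pandas 2.3.3, scipy 1.17.1 and matplotlib 3.10.9 were used. The calculations were tested on simulated data.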

Additional observations from a re-analysis of the deposited data

How the results depend on the processing

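No paired analysis was possible because each group is a single library, and for the same reason no replicate could be left out. The number of the 10 genes past a fold threshold in STZ against buffer was 0, and 1 under 4 alternatives. The gene was Tet1 with a pseudocount of 0.1 (0.640) or with CPM (0.647), and Uhrf1 with TMM (0.647) or DESeq2 (0.649) scaling. With a counting interval that excludes 1 in place of the thresholds, the number was 7 against buffer, 9 against saline and 5 between the controls. By that interval, 18.8% of all genes averaging at least 10 counts were lower and 26.2% higher against buffer. The shares were 23.5% and 26.9% against saline, and 12% and 15.9% between the controls. With only the 8 genes that have whole counts, the number above 1 was 1 in STZ against saline and 0 between the controls. No called value reversed its direction under any alternative run.

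The median log2 fold of the endothelium list in STZ against buffer was -1.27, and that of the lens list 3.99, with a pseudocount of 0.1. For the pigment, ciliary and iris epithelium list the median in STZ was -0.70 against the mean of both controls. Against saline it was -1.67 with a pseudocount of 0.1, -1.496 with TPM, -1.58 with CPM and -0.69 with no minimum count. In saline against buffer it was 1.71, 1.499, 1.61 and 0.74 under the same 4 settings. The log2 fold of STZ against the mean of both controls was -0.31 for Hells and -0.16 for Dnmt1, in place of -0.05 and -0.22 against buffer. With CPM that of Dnmt3a was 0.14 against buffer and 0.25 against saline, in place of 0.04 and 0.11. The other 156 single-gene folds moved by less than the log2 distance from centre to edge of the gene's own counting interval. The other 297 list medians and 22 medians of the 10 genes moved by less than the median of that distance over their genes. For lists of low genes this distance is wide: the endothelium median against saline went from -0.54 to -1.07 with a pseudocount of 0.1 and to -0.97 with CPM. Within the families, counts in place of FPKM gave shares for buffer, saline and STZ of 43.0%, 42.6% and 37.1% for Dnmt1, 54.0%, 54.3% and 60.0% for Dnmt3a, 3.02%, 3.03% and 2.88% for Dnmt3b, 3.46%, 3.02% and 2.40% for Tet1, 32.9%, 32.7% and 29.7% for Tet2, and 63.7%, 64.3% and 67.9% for Tet3. The last alternative leaves out the length of the transcripts by construction, and the cause of the other shifts was not tested. Depth limited Tet1 and Dnmt3b most, with 228 to 417 reads.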

Other observations

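Genes of SNF2 remodelling complexes and of H3K9 methylation, which act on the same chromatin, had medians nearer to 0 than the replication-coupled partners. Of 22 SNF2 genes, 7 were lower and 6 higher in STZ than in buffer by the counting interval, and 7 and 7 against saline, with medians of -0.03 and -0.02 log2. The genes named next were chosen after their values were seen. Dpf1, a subunit of the neuronal BAF complex, was at 9.16 FPKM in buffer, 8.43 in saline and 12.5 in STZ, with folds of 1.32 and 1.43. Actl6b, which also belongs to the neuronal form, stood at folds of 1.11 to buffer and 1.17 to saline. Smarcd3, a BAF subunit not counted here as neuronal, stood at 1.26 and 1.21. The counting intervals of both genes lay above 1. Dpf2, a paralog of Dpf1, was at 73.6, 71.2 and 63.8 FPKM, with folds of 0.869 and 0.898. Actl6a, the paralog of Actl6b found in dividing cells, had folds of 0.951 and 0.975 from fractional counts. Among the other SNF2 genes, Phf10 had folds of 0.983 and 1.03, also from fractional counts, and its intervals spanned 1. Smarca1 had folds of 1.30 and 1.36, with intervals above 1, so a higher value was not confined to the neuronal subunits. None of these passed a fold threshold.

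Of 8 genes of H3K9 methylation and heterochromatin, 3 were lower and 1 higher against buffer and 4 lower and 1 higher against saline, with medians of -0.08 and -0.11 log2. The genes named next were also chosen after their values were seen. Cbx5, which encodes a heterochromatin protein, was at 43.7, 44.0 and 36.0 FPKM. Its folds of 0.829 and 0.823 were the lowest of the 8 and close to those of Ezh2. Suv39h1 and Suv39h2, which methylate H3K9, had folds of 0.937 and 1.09 against buffer and of 0.846 and 0.972 against saline.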
